A study of Mus musculus with 18 samples.

Results

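The chemokine genes Cxcl1, Cxcl2, Cxcl5, Ccl2, Ccl7 and Cxcl10 were followed in cocultures of T cells with peptide-presenting fibroblasts. They are 6 of the 15698 named genes in the deposited table. The members were chosen by their measured levels in these same libraries, above all the level at 0.01 µM peptide against P13.9 cells alone and against the higher doses. Those contrasts are therefore described here without a test. The libraries came from 6 groups of 3 mouse samples. One group was P13.9, a fibroblast cell line grown alone, and another was naive CD4+ T cells from spleen and lymph node. The other 4 groups held 5C.C7 CD4+ T cells, which carry a transgenic receptor for a cytochrome c peptide, after 4 days of activation on P13.9 cells loaded with the peptide pPCC at 0.01, 0.1, 1.0 or 10 µM. The series asked how the strength of the receptor signal shapes T helper cell differentiation. All activated groups shared the transgene and the presenting line, and P13.9 is 1 line.

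Chemokines are small secreted proteins that guide leukocytes through G protein-coupled receptors. Cxcl1, Cxcl2 and Cxcl5 attract neutrophils through the receptor Cxcr2. Ccl2 and Ccl7 attract monocytes through Ccr2, and Cxcl10 is an interferon-induced ligand of Cxcr3, the receptor of activated type 1 T cells. Fibroblasts are a known source of the neutrophil and monocyte attractants when they sense inflammatory cytokines such as TNF and interleukin 1, and their transcripts are short-lived.

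Levels are normalised read counts, each gene's reads divided by 1 scaling factor per library, and are given as mean ± SD over 3 libraries. Libraries of this kind read only the 3′ ends of transcripts, so each gene is compared with itself across groups and not with other genes. Reads of named genes ranged from 27789 to 97757 per naive library, from 201627 to 352001 per P13.9 library and from 156941 to 733009 per activated library. The 14 T cell markers summed to 10.2 to 22.7 in P13.9, where Cd3e, Cd5 and Il7r were at 0, and to 595 to 634 at 0.01 µM. The 20 measured fibroblast markers summed to 875 to 992 in P13.9, 377 to 528 at 0.01 µM and 305 to 323 at 10 µM. Of these markers, Vim alone had 296 ± 21.2, 244 ± 46.1 and 281 ± 14.6 in these groups, so the sum is not a measure of P13.9 content. In such bulk samples, fewer cells of a type and less RNA per cell cannot be told apart.

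At 0.01 µM, the lowest dose, transcripts of the neutrophil attractants Cxcl1 and Cxcl2 and the monocyte attractants Ccl2 and Ccl7 were at their highest of the 6 groups. All 3 libraries at this dose lay above every library of P13.9 cells alone and of naive T cells for these 4 genes. Over all 8179 genes of the fit, 22.1% lay above P13.9 in every library and 5.26% above both preparations, and since the members were chosen on this contrast nothing is read from their count. The level at 0.01 µM relative to P13.9 alone was 8.17 ± 0.69 for Cxcl2, 4.89 ± 0.63 for Cxcl1, 2.12 ± 0.24 for Ccl2 and 1.47 ± 0.22 for Ccl7 (ratio of means ± SE, n = 3 per group). Cxcl5 and Cxcl10 stayed close to the detection limit everywhere. Between 0.01 and 10 µM, groups from different runs of sample numbers in the labels, the 4 measurable genes differed by 22.5-fold to 40.3-fold.

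Cxcl1, whose protein draws neutrophils through Cxcr2, had 210.2, 269 and 296 normalised counts in the 3 libraries at 0.01 µM. Its values in P13.9 alone were 61.4, 50.8 and 46.4, and in naive T cells 19.7, 19.5 and 2.17. The 0.01 µM libraries thus stood apart from both preparations. The values were 24.4, 20.9 and 22.0 at 0.1 µM, 25.2, 18.1 and 22.4 at 1.0 µM, and 8.19, 8.22 and 8.05 at 10 µM. The order of the group means was 0.01 µM, P13.9, 0.1 µM, 1.0 µM, naive and 10 µM, and every neighbouring pair from 0.1 µM downward overlapped. The mean of 258 ± 43.8 at 0.01 µM was 11.5 ± 1.25 times that at 0.1 µM and 31.7 ± 3.11 times that at 10 µM.

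Cxcl2, a second Cxcr2 ligand, had 144, 171 and 138 normalised counts at 0.01 µM. In P13.9 alone it had 17.6, 17.4 and 20.3, and in naive cells 32.8, 35.1 and 30.3. It was the only one of the 4 genes with a higher mean in naive cells than in P13.9, and the 0.01 µM mean of 151 ± 17.7 was 4.60 ± 0.37 times the naive mean. The naive values rest on 5, 9 and 14 reads. At 0.1 µM the values were 22.6, 12.2 and 12.4, at 1.0 µM 13.6, 6.69 and 10.5, and at 10 µM 3.39, 3.43 and 4.41. The 0.1 µM libraries overlapped those of P13.9 and of 1.0 µM, while the 10 µM libraries lay below all others.

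Cxcl1 and Cxcl2 lie side by side on mouse chromosome 5, at chr5:90891245-90893121 and chr5:90903899-90905938 of GRCm38.p6. Because these 2 genes gave the largest ratios to P13.9 and Cxcl10 stayed near the detection limit, the 250 bases before the annotated start of each are shown, from RefSeq on that build. The Cxcl1 stretch is chr5:90890995-90891244 on the plus strand, the Cxcl2 stretch is chr5:90903649-90903898 on the plus strand, and the Cxcl10 stretch is chr5:92348890-92349139 on the minus strand. Each is printed 5′ to 3′, and capitals mark matches to GGGNNTTNC on either strand, a form of the site that NF-kappa-B proteins bind.
Cxcl1: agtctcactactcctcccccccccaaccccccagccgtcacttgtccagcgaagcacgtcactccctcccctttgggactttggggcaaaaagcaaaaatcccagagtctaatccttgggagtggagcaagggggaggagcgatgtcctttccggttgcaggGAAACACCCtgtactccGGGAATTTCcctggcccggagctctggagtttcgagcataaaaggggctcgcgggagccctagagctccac
Cxcl2: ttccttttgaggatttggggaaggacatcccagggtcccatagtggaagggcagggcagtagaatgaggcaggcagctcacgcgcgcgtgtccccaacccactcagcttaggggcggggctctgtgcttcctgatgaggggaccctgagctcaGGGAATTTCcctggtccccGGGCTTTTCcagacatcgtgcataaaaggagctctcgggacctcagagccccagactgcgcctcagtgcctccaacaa
Cxcl10: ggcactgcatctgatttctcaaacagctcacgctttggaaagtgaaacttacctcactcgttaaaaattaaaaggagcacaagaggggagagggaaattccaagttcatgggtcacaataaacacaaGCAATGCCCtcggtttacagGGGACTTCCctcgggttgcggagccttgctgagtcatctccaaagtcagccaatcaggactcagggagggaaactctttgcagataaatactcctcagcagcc
Promoter sequences were at hand for 3 of the 6 genes.

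Each of the 3 promoters held 2 matches to GGGNNTTNC, which 13% of 32851 mouse promoter windows of the same length contain. In Cxcl1 the matches began 88 and 71 bases before the start, in Cxcl2 97 and 78, and in Cxcl10 123 and 103. The match GGGAATTTC is the same in Cxcl1 and Cxcl2 and lies in a shared run of 14 bases, GGGAATTTCCCTGG, found in 2 of the 32851 windows. The Cxcl10 window alone held AANNGAAAC, the core of an interferon response element, 211 bases before its start, and TGANTCA, a palindromic AP-1 motif that matches on both strands, 74 bases before it. Of all windows, 4.95% hold the first and 6.75% the second, and no match of one motif overlapped a match of another. Of 13 other chemokine genes of the table with a promoter window, 5 held GGGNNTTNC, among them Cxcl3 at 73 bases. The motif letters were chosen after the 3 promoters had been seen, and a match describes letters only. Cxcl10 thus carried the same motif as the 2 genes with the largest ratios.

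Ccl2, the main ligand of the monocyte receptor Ccr2, had 167, 230 and 243 normalised counts at 0.01 µM. P13.9 alone had 95.1, 104 and 103, the highest level of this gene outside the 0.01 µM group. Naive cells had 19.7, 7.81 and 0, from 3, 2 and 0 reads. The values were 19.5, 27.0 and 37.3 at 0.1 µM, 31.0, 9.03 and 26.4 at 1.0 µM, and 9.89, 11.6 and 6.90 at 10 µM. Means ran from 213 ± 40.4 at 0.01 µM through 101 ± 4.85 in P13.9 to 9.16 ± 9.90 in naive cells, and from 0.1 µM downward all neighbouring groups overlapped.

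Ccl7 lies next to Ccl2, at chr11:82045712-82047525 against chr11:82035577-82037452, and encodes another Ccr2 ligand. It had 50.9, 63.1 and 68.5 normalised counts at 0.01 µM and 33.7, 50.8 and 39.3 in P13.9. The groups did not overlap, but the lowest library at 0.01 µM exceeded the highest of P13.9 by less than 1 read is worth in that P13.9 library. No read of Ccl7 was found in naive T cells. Its values were 2.13, 6.10 and 7.87 at 0.1 µM, 8.40, 1.00 and 2.77 at 1.0 µM, and 3.11, 2.74 and 2.11 at 10 µM. These 3 dose groups overlapped one another, and the mean at 0.01 µM was 22.9 ± 3.20 times that at 10 µM.

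Cxcl5, the third Cxcr2 ligand, was barely detected. It had 3, 2 and 2 reads in the libraries at 0.01 µM, 1 read at 1.0 µM in replicate A, and none elsewhere. Its pooled level at 0.01 µM was 0.528, with an exact Poisson 95% interval of 0.212 to 1.09. The same interval for the count of 0 in P13.9 ran from 0 to 0.729, so a difference from P13.9 was not detectable at this depth. The level of 3 reads, used here as a floor for a count of 0, was 0.593 over the P13.9 libraries. These intervals and limits cover counting error only.

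Cxcl10 differed from the other 5 in its order of groups. It had 1, 1 and 2 reads in P13.9, 5, 3 and 2 at 0.01 µM and 0, 2 and 2 in naive cells. Its pooled level was 0.755 (exact Poisson 95% interval 0.362 to 1.39) at 0.01 µM and 0.790 (0.215 to 2.02) in P13.9. At the 3 higher doses it had 2, 0 and 3 reads in all. The interferon-induced member of the set was therefore at a similar low level in P13.9 alone and in the coculture at 0.01 µM, with wide intervals.

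**Figure D1:**
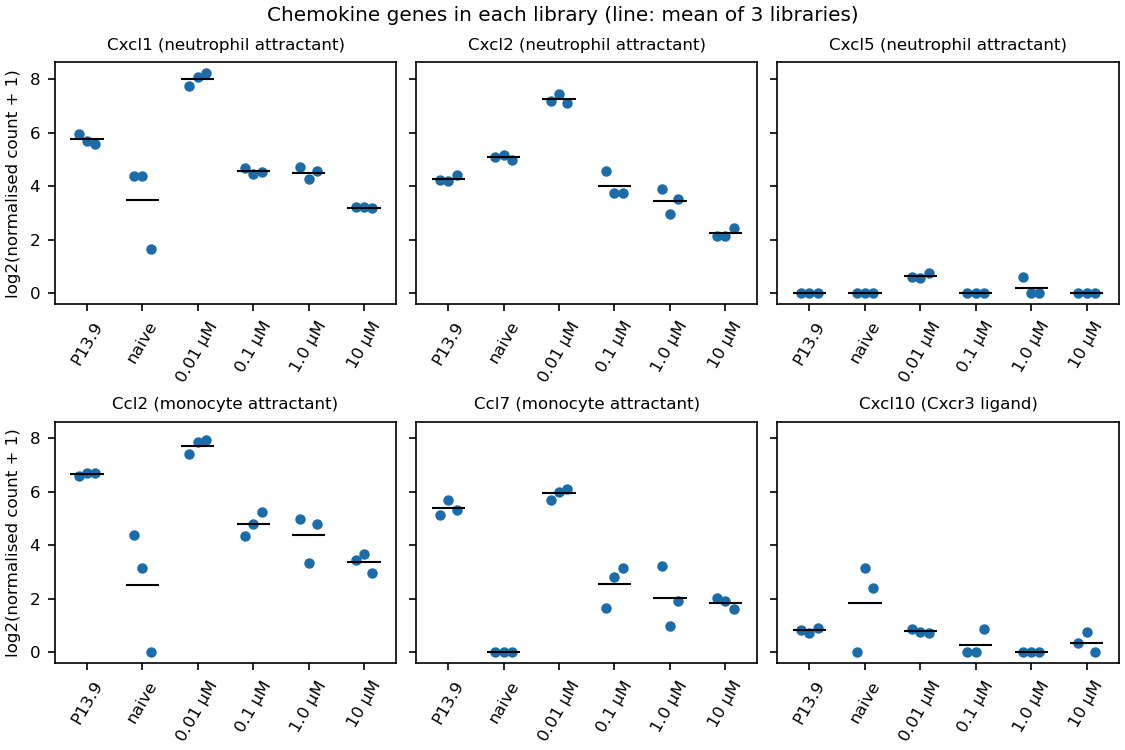
Each panel plots 1 chemokine gene, with the group on the x axis and log2(normalised count + 1) on the y axis; points are libraries and lines the mean of the 3. Cxcl1, Cxcl2, Ccl2 and Ccl7 peak at 0.01 µM, where Cxcl1 averages 258 normalised counts, and Cxcl5 and Cxcl10 stay near 0.

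The activated T cells had shared dishes with P13.9 cells, so chemokine reads can come from P13.9 transcripts in the sample as well as from a change in level. To gauge the P13.9 transcripts in each library, 4 fibroblast markers were set against their levels in P13.9 alone, and their median percent is called the P13.9 transcript share. They were the matrix genes Sparc, Col1a2 and Fn1, and the caveola gene Cav1. The share fell in order of dose, from 31.7 ± 7.35% at 0.01 µM to 7.64 ± 2.11% (0.1 µM), 4.59 ± 1.08% (1.0 µM) and 1.53 ± 0.482% (10 µM; SD, n = 3). In naive cells, which saw no P13.9 cells, the same markers gave 4.08 ± 1.24%. A second set held 73 genes with no naive read, and left out the members and all genes of the lists. It gave 23.5 ± 3.23%, 7.34 ± 1.74%, 5.22 ± 1.94% and 2.63 ± 0.462% at the 4 doses. The share was thus highest where the chemokines were highest.

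A gene whose only source is carried-over P13.9 transcripts, at the level of P13.9 alone, would lie at about this share. Relative to P13.9 alone at 0.01 µM, Cxcl2 stood at 746% to 926% over the 3 libraries, which was 18.9 to 31.4 times the share of the same library. Cxcl1 stood at 398% to 560%, or 14.2 to 16.4 times the share. Ccl2 stood at 166% to 241%, or 6.11 to 7.35 times, and Ccl7 at 123% to 166%, or 4.21 to 4.98 times. With the set of 73 genes these multiples were larger, from 5.97 to 6.61 for Ccl7 up to 29.8 to 39.4 for Cxcl2. Cxcl10 stood at 87.3% to 108%, or 2.21 to 4.37 times the 4-marker share. These values rest on 10 reads at 0.01 µM and 4 in P13.9, so nothing is read from them. None of the 73 genes exceeded its P13.9 level at 0.01 µM, and the highest, Ak1, reached 95.7%. Ccl7, which also had no naive read, was kept out of this set as a member. At 0.1, 1.0 and 10 µM the highest of the set, Ech1, stood at 107%, 98.4% and 81.4% of its P13.9 level. A lack of reads in the shallow naive libraries does not show that T cells hold no transcript of a gene. Which cells of the coculture held the transcripts was not tested.

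The genes differed at the higher doses. Cxcl1 stood at 42.4% of its P13.9 level at 0.1 µM, 41.4% at 1.0 µM and 15.4% at 10 µM, and lay above the share in every library, by 4.33 to 8.54 times at 0.1 µM, 7.78 to 11.7 times at 1.0 µM and at least 7.79 times at 10 µM (4.92 to 6.51 times with the 73 genes). Cxcl2 stood at 85.3%, 55.6% and 20.3%, or 7.02 to 22.6 times the share, although T cells alone also held Cxcl2 reads. Ccl2 stood at 27.7%, 22.0% and 9.41%, or 2.04 to 9.50 times the share (2.93 to 4.11 times with the 73 genes at 10 µM). Naive T cells alone also held Cxcl1 at 13.8 ± 10.1 and Ccl2 at 9.16 ± 9.90. At 10 µM these genes had 8.15 ± 0.0940 and 9.48 ± 2.40. How much of the Cxcl1, Cxcl2 and Ccl2 levels at these doses came from T cells was not tested. Ccl7, which had no naive read, stood at 13.0%, 9.82% and 6.42%. It lay at 0.957 to 1.99 times the share at 0.1 µM and at 0.553 to 3.53 times at 1.0 µM, where 1 library of 3 fell below the share at each dose. At 10 µM it lay at 3.28 to 7.28 times the share of the 4 markers and at 2.10 to 3.15 times that of the 73 genes. The 4 markers gave 4.08 ± 1.24% in naive cells, against 4.59 ± 1.08% at 1.0 µM and 1.53 ± 0.482% at 10 µM. For all 4 genes, multiples of the 4-marker share at 1.0 and 10 µM therefore do not measure an excess over carried-over P13.9 transcripts. Of the 73 genes, 20 stood as high as Ccl7 at 0.1 µM, against 3 for Cxcl1, 1 for Cxcl2 and 5 for Ccl2. The 73 genes were chosen for having no naive read, unlike Cxcl1, Cxcl2 and Ccl2.

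**Figure D2:**
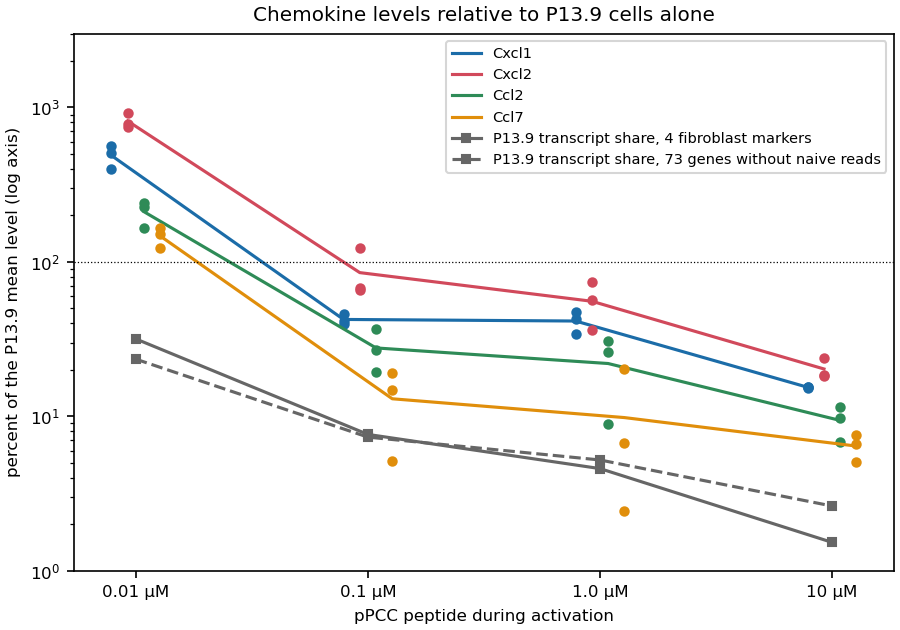
The x axis gives the pPCC dose and the y axis, on a log scale, the level as a percent of the mean in P13.9 cells alone, with the 4 chemokine genes as points per library and lines through the means. Grey squares are the P13.9 transcript share by 2 sets of genes. At 0.01 µM the chemokines lie above the dotted line at 100 and the share at 31.7% or 23.5%.

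For a wider reference, genes were taken that had a mean of at least 10 in P13.9 and under 50% of that mean at 10 µM, a rule set after the data had been seen. These 1494 genes had a median ratio of 0.398 between 0.01 µM and P13.9 alone, with quartiles of 0.265 and 0.565. Only 43 of them had a ratio above 1 and 5 a ratio above 2. Cxcl2 ranked 1, Cxcl1 ranked 2, Ccl2 ranked 4 and Ccl7 ranked 10 by this ratio. Rank 3 was Ccl9, another chemokine gene, at 2.52, and rank 5 the myosin gene Myo6, at 2.004. Without overlap above P13.9 were 0.87% of the class. For the chemokine members this is the contrast that chose them, so their place in the class is a description.

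**Figure D3:**
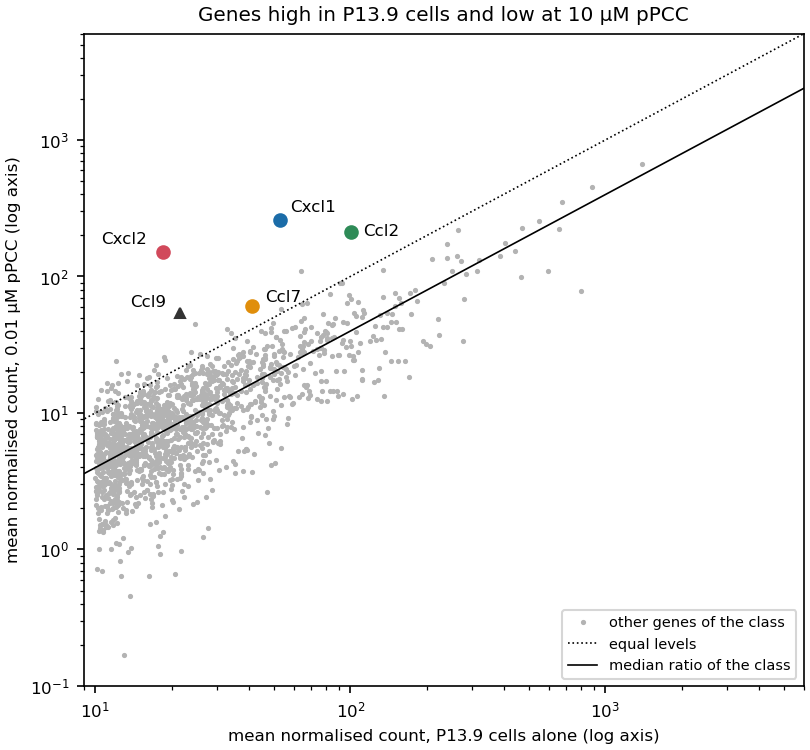
Each grey point is 1 of 1494 genes, with its mean normalised count in P13.9 cells alone on the x axis and at 0.01 µM pPCC on the y axis, both on log scales. Coloured points are the 4 chemokine members and the triangle is Ccl9. Most genes scatter around the solid line at the median ratio of 0.398, and the chemokines lie above the dotted line of equal levels.

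Steps between the upper doses, which did not choose the members, were tested with limma over 7264 genes and Benjamini-Hochberg adjustment. Cxcl1, Cxcl2, Ccl2 and Ccl7 passed the filter on low values, which asked for 5 or more normalised counts in 3 or more of the naive and activated libraries, and Cxcl5 and Cxcl10 did not. From 0.1 to 10 µM, Cxcl2 fell by 1.77 ± 0.28 on the log2 scale (limma, adjusted p = 0.0192), with all 3 libraries at 10 µM below those at 0.1 µM. That is 1 of 4 tested members lower, where limma called 0.0826% of all genes lower and 0.0138% higher. Cxcl1 gave -1.35 ± 0.50 and Ccl2 -1.45 ± 0.77, with adjusted p of 0.692 and 1, and for both genes the groups did not overlap. Ccl7 gave -0.68 ± 0.51 with overlapping groups. How many of all genes lacked overlap in this comparison was not counted, so nothing is read from the lack of it. The median over the 4 members was -1.40 and over all genes -0.03. The edgeR and DESeq2 count tests called Cxcl1, Cxcl2 and Ccl2 lower, where they called 1.18% and 1.07% of all genes lower. The limma call of Cxcl2 was lost without 0.1 µM replicate A (adjusted p = 0.0743) and without 10 µM replicate A, B or C (0.111, 0.117 and 0.0511). The P13.9 transcript share fell over the same interval, and Cxcl2 lay at 7.02 to 22.6 times the share at 0.1 µM and 9.30 to 17.8 times at 10 µM, or 7.81 to 22.8 and 5.87 to 10.2 times with the 73 genes. At 10 µM the 4-marker share of 1.53% was below the 4.08% of the same markers in naive cells.

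From 1.0 to 10 µM, limma called none of the 4 members, with 0.0688% of all genes called lower and 0.0138% higher. Cxcl2 gave -1.21 ± 0.28 with an adjusted p of 0.218, and its libraries at 10 µM lay below all those at 1.0 µM. Cxcl1 gave -1.31 ± 0.50 without overlap, Ccl2 -1.01 ± 0.77 and Ccl7 -0.19 ± 0.51, both with overlap. Here too the share of all genes without overlap was not counted, and nothing is read from it. At an unadjusted p below 0.05, limma counted 380 of all genes. The edgeR test called Cxcl1, Cxcl2 and Ccl2 lower and DESeq2 called Cxcl1 and Cxcl2 lower, with 1.72% and 1.5% of all genes called lower. Between 1.0 and 0.1 µM, 0 members and 0 genes were called by limma, edgeR or DESeq2, which is 0% in either direction, and 110, 288 and 208 genes had an unadjusted p below 0.05. The log2 differences there were -0.04 ± 0.50 for Cxcl1, -0.57 ± 0.28 for Cxcl2, -0.44 ± 0.77 for Ccl2 and -0.49 ± 0.51 for Ccl7. The sample numbers in the labels form 2 runs, one with 0.1 and 10 µM and one with the other groups, so both comparisons with 1.0 µM cross these runs, as does every comparison of 0.01 with 10 or 0.1 µM.

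P13.9 cells alone differed from naive T cells in all 4 tested members. The P13.9 levels also entered the choice of the members, so this comparison was not independent of that choice. Its adjusted p-values and its count of members are given as a description, and nothing is read from them. Cxcl1 was higher in P13.9 by 2.28 ± 0.47 on the log2 scale (limma, adjusted p = 0.00043), Ccl2 by 4.16 ± 0.71 (adjusted p = 6.35e-05) and Ccl7 by 5.38 ± 0.47 (adjusted p = 1.85e-08). On the level itself, Ccl7 was at least 11.98-fold higher, against a floor of 3 reads over the naive libraries. Cxcl2 was lower in P13.9, with a log2 difference of -0.80 ± 0.26 (limma, adjusted p = 0.0148). So 3 members rose and 1 fell, where 29.9% of all genes were called higher in P13.9 and 29.1% lower. The Cxcl2 call did not hold in edgeR (adjusted p = 0.322) or DESeq2 (adjusted p = 0.43), with quantile normalization (0.0872) or with array weights (0.191), and that of Cxcl1 did not hold in a fit of these 6 libraries alone (limma, adjusted p = 0.0535).

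Naive libraries also carried transcripts of neutrophils and other myeloid cells. The 18 measured myeloid and neutrophil markers summed to 872 to 1152 in the naive libraries, where Adgre1 and Itgax were at 0, and to 3.07 to 9.36 in P13.9, where 11 were at 0. They summed to 67.2 to 78.9 at 0.01 µM, with none at 0, to 27.4 to 40.1 at 0.1 µM, to 25.4 to 36.2 at 1.0 µM and to 20.6 to 27.4 at 10 µM. S100a8, a neutrophil calcium-binding protein, stood at 483 ± 69.8 in naive cells, 27.8 ± 2.15 at 0.01 µM and 3.50 ± 0.351 at 10 µM. Cxcl2 followed the opposite order between naive and 0.01 µM, 32.7 ± 2.41 against 151 ± 17.7. Of 10 tested markers, 8 rose at 0.01 µM against P13.9, where limma called 10.8% of all genes higher and 14.3% lower. From 0.01 to 10 µM, where 1.9% were called higher and 6.25% lower, 3 fell, S100a8, S100a9 and Lyz2, the last not called when any single library of the 6 compared was left out. The part of myeloid cells in the chemokine levels was not tested.

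The receptors of the members were few among these transcripts. Of 10 receptor genes, 5 had a row and 4 were tested between 0.01 µM and P13.9, where 1 rose. In that comparison limma called 10.8% of all genes higher and 14.3% lower. The receptor gene that rose was Ccr1, a receptor for Ccl7, from 0 to 1.37 ± 0.698, with an adjusted p of 0.0497 (limma). Its call was lost when any single library of the 6 was left out. Ccr1 was higher in naive cells, at 5.51 ± 2.96, and at 0.1 µM, at 5.69 ± 2.64. From 0.01 to 10 µM, where 1.9% of all genes were called higher and 6.25% lower, 1 of 3 tested receptor genes rose. That gene was Cxcr3, the receptor of Cxcl10, by 3.82 ± 0.34 (limma, adjusted p = 1.38e-05), from 0.0558 ± 0.0967 at 0.01 µM to 13.8 ± 0.719. Cxcr3 thus rose over doses at which its ligand gene Cxcl10 stayed at 0 to 2 reads per library above 0.01 µM. Ccr2, the receptor of Ccl2 and Ccl7, failed the filter, at 1.49 ± 0.430 at 0.01 µM and 0.430 ± 0.118 at 10 µM.

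Other chemokine genes near the members moved in part with them. Cxcl3, a Cxcr2 ligand 24.5 kb from Cxcl5 in the chromosome 5 cluster, had 9.04, 11.8 and 24.3 normalised counts at 0.01 µM against 2.30, 4.01 and 0.884 in P13.9. It rose by 2.24 ± 0.73 on the log2 scale (limma, adjusted p = 0.0316), a call lost without P13.9 replicate 1 or 3 or 0.01 µM replicate B or C (adjusted p up to 0.136). Pf4, 10.8 kb from Cxcl5, had 13 reads at 0.01 µM and none in any other group. Ccl1, 129 kb from Ccl7 on chromosome 11, had 18 reads at 0.01 µM and 2 in P13.9. Ppbp, Cxcl15, Cxcl9, Cxcl11, Ccl8, Ccl11 and Ccl12 of the same clusters were not analysed here.

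Of 29 other chemokine genes on the list, 16 had a row and 7 were tested. Against P13.9, 3 rose at 0.01 µM and 4 did not pass, and from 0.01 to 10 µM 3 fell and 4 did not pass. Among all genes, 10.8% were called higher and 14.3% lower in the first comparison, and 1.9% and 6.25% in the second. The median log2 difference of the 7 was 1.01 and -1.83 in these comparisons, against -0.13 and -0.03 over all genes. Ccl6, a myeloid chemokine, rose from no read in P13.9 to 9.36 ± 1.99, at least 15.8-fold (limma, adjusted p = 3.69e-06). Naive cells held 7.53 ± 3.79 of it. It fell again by 10 µM, with a log2 difference of -1.86 ± 0.41, a call lost without 0.01 µM replicate B or C. Ccl20, the ligand of Ccr6, counts among those called in both comparisons, but it passed the filter only through the 0.01 µM group and is described without its test. Its mean was 7.33 ± 1.38 at 0.01 µM, 4.01 ± 0.774 in P13.9 and 0.0639 ± 0.111 at 10 µM. Ccl9, whose protein binds Ccr1, fell by 4.10 ± 0.75 from 0.01 to 10 µM (limma, adjusted p = 0.00345). Its rise over P13.9, from 21.5 ± 1.46 to 54.1 ± 23.8, was not called (adjusted p = 0.226). Ccl5, a T cell chemokine, did not share the pattern, with 5.35 ± 0.471 at 0.01 µM and 12.1 ± 1.66 at 10 µM (adjusted p = 0.0896).

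**Figure D4:**
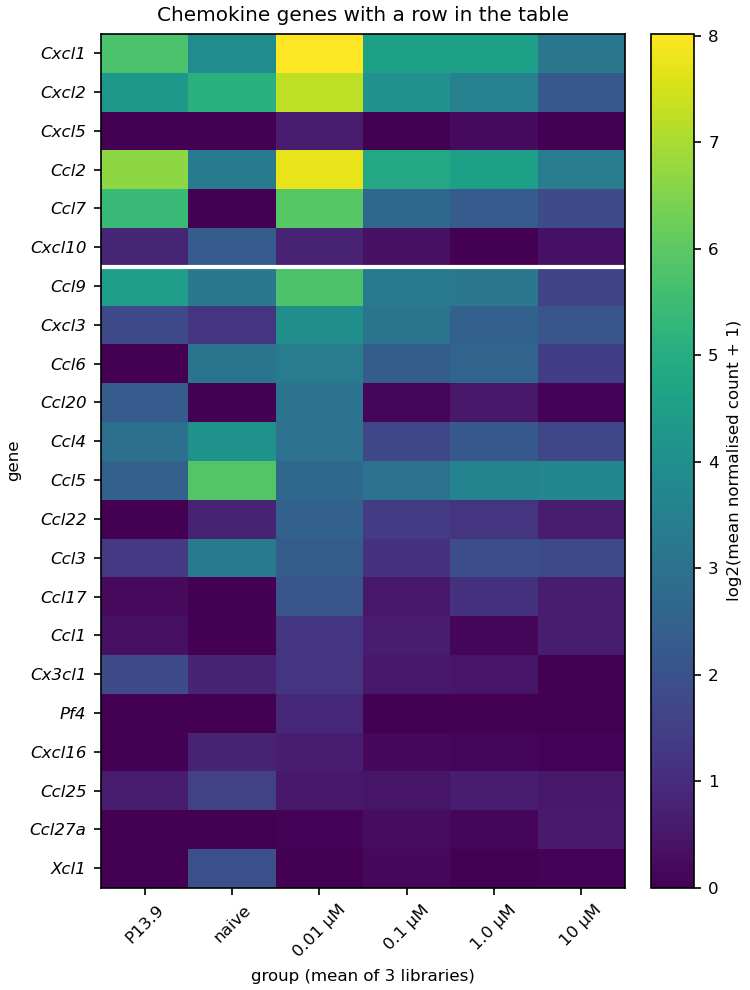
Rows are the 6 members, above the white line, and 16 other chemokine genes, and columns the 6 groups. Colour gives log2(mean normalised count + 1) over 3 libraries. The 0.01 µM column is the brightest for Cxcl1, Cxcl2, Ccl2, Ccl7 and Ccl9, and Ccl5 is brightest in naive cells.

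Genes for cytokines that induce these chemokines in fibroblasts differed in their direction. Of 13 on the list, 11 had a row and 5 were tested. Against P13.9, 3 rose at 0.01 µM: Ltb, a T cell lymphotoxin subunit, by 5.34 ± 0.27, Il13, a type 2 cytokine, by 2.93 ± 0.42, and Osm, oncostatin M, by 2.74 ± 0.40. Naive T cells alone held 78.6 ± 30.2 of Ltb, 23.2 ± 14.4 of Il13 and 9.86 ± 2.85 of Osm, against 59.5 ± 6.21, 34.7 ± 4.43 and 8.06 ± 2.24 at 0.01 µM. Tnf did not pass, at 8.54 ± 3.13 against 7.89 ± 5.97 (limma, adjusted p = 0.788). From 0.01 to 10 µM Il13 fell by 1.74 ± 0.43, a call lost without any of the 0.01 µM replicates or without 10 µM replicate B, and the other 4 did not pass. Il1b had 3.74 ± 0.272 at 0.01 µM, 0.479 ± 0.417 in P13.9 and 5.65 ± 1.51 in naive cells, and failed the filter. Of 17 receptor genes for such cytokines, 16 had a row, and of 11 tested 1 rose and 4 fell at 0.01 µM against P13.9. Il4ra, the receptor chain shared by interleukins 4 and 13, rose by 2.33 ± 0.38 to a level of 49.8 ± 16.1, against 46.7 ± 20.1 in naive cells, and those that fell included Osmr (-2.37 ± 0.54), Tnfrsf1a (-1.78 ± 0.37) and Ltbr (-1.80 ± 0.52). Ltbr was not called without P13.9 replicate 2 or 0.01 µM replicate C. As ratios to P13.9 alone, Osmr stood at 0.129, Tnfrsf1a at 0.272 and Ltbr at 0.259, where the P13.9 transcript share was 31.7% or 23.5%. Whether these receptor genes fell below that share was not tested. From 0.01 to 10 µM, limma called 0 of 8 tested. Over all genes it called 10.8% higher and 14.3% lower at 0.01 µM against P13.9, and 1.9% and 6.25% from 0.01 to 10 µM.

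The NF-kappa-B and acute inflammatory genes moved in both directions. Of 29 on the list, 27 had a row and 19 were tested, of which 2 rose, 5 fell and 12 did not pass at 0.01 µM against P13.9, with a median of -0.13, as over all genes. The shares called over all genes were 10.8% higher and 14.3% lower there, and 1.9% and 6.25% from 0.01 to 10 µM. Bcl3, a nuclear NF-kappa-B cofactor, rose by 3.84 ± 0.29 and Birc3, an inhibitor of cell death, by 2.69 ± 0.45. Both had a higher mean in naive T cells, 27.7 ± 7.75 for Bcl3 and 14.5 ± 8.81 for Birc3, than at 0.01 µM, 20.6 ± 3.37 and 5.54 ± 1.20. Cebpd and Cebpb, transcription factors of the acute phase, fell by 3.01 ± 0.56 and 2.10 ± 0.26. As ratios to P13.9 alone they stood at 0.102 and 0.232, where the P13.9 transcript share was 31.7% or 23.5%. Whether they fell below that share was not tested. Csf1, a growth factor of monocytes and macrophages, had 90.3 ± 18.7 against 91.0 ± 16.1 in P13.9. From 0.01 to 10 µM, 4 of 18 fell: Csf1 (log2 difference -3.78 ± 0.74), the adhesion gene Vcam1 (-2.90 ± 0.67), Tnfaip2 (-2.78 ± 0.51) and Nfkbiz, a cofactor for secondary response genes (-2.19 ± 0.37). Vcam1 and Tnfaip2 passed the filter only with the 0.01 µM group counted, so their calls support nothing about the list. Vcam1 was not called without 0.01 µM replicate B or C or 10 µM replicate A or B. Csf3 and Il6, inflammatory genes of fibroblasts singled out after their values had been seen, failed the filter. Csf3, the neutrophil growth factor, had 28 reads at 0.01 µM and 1 in P13.9, and Il6 had 30 and 2, among 1654577 and 788367 reads in all.

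Other interferon-inducible genes mostly rose where they passed the test. Of 23 on the list, 22 had a row and 11 were tested, with 6 higher and 1 lower at 0.01 µM against P13.9 and 6 higher from 0.01 to 10 µM. All genes together gave 10.8% higher and 14.3% lower in the first comparison, and 1.9% and 6.25% in the second. The immunoproteasome genes Psmb9 and Psmb8 rose by 2.18 ± 0.30 and 1.99 ± 0.28 over P13.9 and by 1.497 ± 0.316 and 1.47 ± 0.28 from 0.01 to 10 µM. The second rise of Psmb9 was not called without 0.01 µM replicate C. Igtp, an interferon-induced GTPase, rose by 1.46 ± 0.31 and 1.95 ± 0.29. In naive T cells Igtp stood at 13.3 ± 1.73, against 12.9 ± 1.93 at 0.01 µM. Of 10 regulators of chemokine mRNA decay, 9 were tested and 1, the RNA-binding protein Hnrnpd, rose at 0.01 µM, by 1.03 ± 0.27, a call lost without P13.9 replicate 3. Its naive level was 37.4 ± 8.21, against 26.8 ± 3.24 at 0.01 µM. Zfp36, tristetraprolin, which speeds the decay of such transcripts, had 8.46 ± 2.44 at 0.01 µM against 8.51 ± 1.48 in P13.9 (limma, adjusted p = 0.968).

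Markers of the cell types in the dish moved between the same groups. All 14 T cell markers rose at 0.01 µM against P13.9, led by Trac, the T cell receptor alpha constant gene, by 5.21 ± 0.21, and 2 rose from 0.01 to 10 µM, among them Lck by 1.28 ± 0.19. Of 14 tested fibroblast markers, 6 fell and 1 rose at 0.01 µM against P13.9, and of 10 tested 7 fell from 0.01 to 10 µM. For all genes the shares were 10.8% higher and 14.3% lower against P13.9, and 1.9% and 6.25% from 0.01 to 10 µM. Fn1, fibronectin, gave -3.02 ± 0.67 on the log2 scale against P13.9. Of the 7 that fell from 0.01 to 10 µM, 4 passed the filter only with the 0.01 µM group counted, among them the collagen chain Col1a2, with 17.4 ± 5.87 at 0.01 µM and 0.514 ± 0.208 at 10 µM. The marker called higher was Ccn2, a matricellular growth factor gene, which likewise passed only through that group, with 6.75 ± 0.801 at 0.01 µM and 0.626 ± 0.167 in P13.9. The 5 measured B cell markers summed to 14.8 to 18.6 at 0.01 µM and 31.4 to 39.8 in P13.9. The 3 measured endothelial and reticular stromal markers summed to 3.04 to 3.68 and to 0 to 0.669. The part of each cell type in the chemokine levels was not tested.

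Over the 18 libraries, the genes whose log2 levels were most like the mean profile of the 6 members were Cd44 (Pearson r = 0.897), Ccl9 (0.870), S100a4 (0.806), Ccnd1 (0.800), Myo6 (0.790), Serpinb9b (0.776), Txnrd1 (0.768) and Pls3 (0.761), among 3189 genes compared. Cd44, a receptor for hyaluronan, had 109 ± 13.8 at 0.01 µM and 63.8 ± 10.1 in P13.9. With the profile of Cxcl1, Cxcl2, Ccl2 and Ccl7 alone, Ccl9 came first at 0.928, followed by Csf1 at 0.854. Among the members, Cxcl1 and Ccl2 were most alike at 0.936 and Ccl2 and Ccl7 gave 0.904, while Cxcl10 gave 0.317 or less with each of the others. These correlations are a description, since the 18 points share groups, depth and the P13.9 share.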

How the data were processed

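Messenger RNA was read as 3′ tags (Lexogen QuantSeq, Illumina NextSeq) in 18 libraries, per the labels' protocols. The deposited table gives 1 normalised signal per gene and library, read counts divided by the authors' median-of-ratios factors, per the file headers. Per the submitters' processing notes, the tools included STAR 2.6.1d, HTSeq 0.9.1, FastQC 0.11.8 and DESeq2, on mm10. The sources used here give neither the annotation nor the strand setting. Whole reads were recovered from the steps between values, and 99.9997% of 284544 values came out whole within 1e-04 reads. These totals are much smaller than the depth stated in the labels, which limits the precision of genes with few reads. The 110 unnamed rows, 1.94% to 15.6% of the reads, were left out.

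The main test was limma 3.58.1 in R 4.3.3 (lmFit and eBayes with a trend) on log2(value + 1), which understates changes of low genes. Genes needed 5 or more normalised counts in 3 or more libraries of the fit. Dose comparisons used the 15 T cell libraries (7264 genes) and comparisons with P13.9 all 18 (8179 genes). P-values are two-sided and Benjamini-Hochberg adjusted, and the threshold for a call was 0.05. In 0.01 µM against P13.9 the median log2 difference over all genes was -0.13 in limma and 0.03 in edgeR, and in P13.9 against naive 0.16 and 0.25. The alternatives were edgeR 4.0.16 and DESeq2 1.42.0 on the recovered reads (edgeR called 111 genes between 10 and 0.1 µM and 3538 between 0.01 µM and P13.9), other pseudocounts, filters, normalisation and weights, other samples in the fit, and each replicate left out. The fits were tested on simulated data.

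The members, the gene lists and the tests were chosen with earlier results of these data known. Genes named are the members, up to 4 called genes per list and comparison with the largest change and a group mean of at least 5, the chemokine neighbours of the members, and the 8 genes most like them. The lists' other genes that are named were picked after their values were seen. Columns of P13.9 and naive cells were matched to their groups only. Replicate letters paired no samples: same-letter deviations over 1346 genes correlated between -0.35 and 0.22. Separate animals or cultures are not named in the labels for the samples of a group, nor is a step that parted T cells from P13.9 cells before extraction. P-values therefore reflect the spread among these samples only, which may be technical. Positions and promoters come from RefSeq on GRCm38.p6. A gene that the naming rule picks is not reported here.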

Additional observations from a re-analysis of the deposited data

How the results depend on the processing

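Counts of called members or list genes depended on the test. For 10 against 0.1 µM the main count of called members was 1. It was 3 with array weights, edgeR or DESeq2, 2 in a fit of the 12 activated libraries with the replicate block, and 2 in that fit without the block, which was added after seeing the data. Leaving out 1 replicate gave 0 to 1. For 10 against 1.0 µM it was 0, against 2 with array weights, 3 with edgeR, 2 with DESeq2, and 1 with or without the replicate block in the 12 libraries. For list genes, 27 were called at 0.01 µM against P13.9, but 10 with a mean of at least 20, which tests fewer genes, 43 with array weights and 42 with edgeR. From 0.01 to 10 µM, 15 were called, but 7 with a mean of at least 20, 38 with array weights, 28 with the replicate block and 26 without it, 29 with edgeR and 28 with DESeq2. No paired analysis with P13.9 or naive cells was possible because their columns carry no letter of the titles. The cause was not tested.

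Called genes in all numbered 7 for 10 against 0.1 µM (111 with edgeR, 119 with DESeq2, 274 with array weights, 16 in a fit of all 18 libraries, 26 with the replicate block, 81 without it in the 12 libraries), and 6 for 10 against 1.0 µM (175, 181, 145, 10, 40 and 86). They numbered 592 for 10 against 0.01 µM (2528 with edgeR, 2330 with DESeq2, 3334 with array weights, 1739 with the replicate block, 1954 without it, 251 with a mean of at least 20), 2056 for 0.01 µM against P13.9 (3538, 3305 and 4000 with edgeR, DESeq2 and array weights, 3495 in a fit of the 6 libraries, 613 with a mean of at least 20) and 4826 for P13.9 against naive (949 with a mean of at least 20, 3046 in the 6 libraries). Leaving out 1 replicate gave 1 to 5, 2 to 4, 199 to 387, 1283 to 1642 and 3984 to 4620. From 0.01 to 10 µM, 138 of the calls were higher and 454 lower in limma, against 1125 and 1403 in edgeR and 1248 and 1082 in DESeq2.

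Scaled to each library's total reads, the median ratio of 0.01 µM to P13.9 over 5 members was 2.62, where the main value was 2.12, and that of Cxcl10 was 1.18, where the main value was 0.952. Leaving out 1 replicate gave 0.886 to 1.03 for Cxcl10. The P13.9 share at 0.01 µM was 23.5% from the 73 genes and 22.0% as a ratio of sums, against 31.7%, and the median multiple of the share over 5 members was 8.97 and 9.64, against 6.72. At 10 µM the 73 genes gave 2.63%. Differences near 0 changed sign when 1 replicate was left out: Ccl7 between 10 and 1.0 µM ran from -0.71 to 0.40, and between 1.0 and 0.1 µM Cxcl1 ran from -0.15 to 0.084, Ccl2 from -0.76 to 0.080 and Ccl7 from -1.08 to 0.031. The direction of the ratios to P13.9 of Cxcl1, Cxcl2, Ccl2 and Ccl7 was the same under every alternative run. In naive libraries 1 read is worth more than in any other group.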
